A study of Arabidopsis thaliana with 24 samples.

Results

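The 10 phosphate starvation and transport genes described here were followed in roots and shoots of Arabidopsis thaliana, listed by gene identifier with earlier results of these data known: SPX1 (AT5G20150), SPX3 (AT2G45130), PHT1;1 (AT5G43350), PHT1;4 (AT2G38940), IPS1 (AT3G09922), AT4 (AT5G03545), SQD2 (AT5G01220), MGD3 (AT2G11810), PHO1 (AT3G23430) and PHO1;H1 (AT1G68740). All 10 were listed among the 26405 genes that had reads in any library. The plants were wild-type Col-0, either neo-tetraploids, a line carried over from earlier work in which the whole genome had been duplicated, or the diploids they derive from. Both ploidies grew for 2 weeks on agar with diluted Hoagland medium and sucrose, with 35 mM NaCl added or with no NaCl (0 mM, control), and phosphate was supplied to every group. Roots and shoots were collected separately, which gave 8 groups: neo-tetraploid NaCl, diploid NaCl, neo-tetraploid control and diploid control roots, and the same for shoots. Each group had 3 libraries, 24 in all, and each library came from pooled plants of one experiment, so p-values measure the spread between these pools.

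Plants short of phosphate raise the same set of genes in most tissues. The transcription factor PHR1 binds a short promoter motif called P1BS, and SPX proteins hold PHR1 back while phosphate is plentiful. SPX1 and SPX3 are such proteins, and their own genes are among the targets of PHR1, which makes their transcripts common readouts of phosphate status. PHT1;1 and PHT1;4 are plasma membrane transporters that take up phosphate from soil. PHO1 loads phosphate into the xylem of roots, and its relative PHO1;H1 can share this task. IPS1 and AT4 are RNAs that act without a long protein product: they bind the microRNA miR399 without being cut and so keep it from PHO2, the ubiquitin-conjugating enzyme that limits PHT1 and PHO1 proteins. SQD2, which makes the sulfolipid of plastids, and MGD3, which makes a galactolipid, allow membranes to be built with less phospholipid.

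The pairing of IPS1 and AT4 with miR399 is shown because these RNAs differ from the real target in a few bases only. The sequences are from the RefSeq annotation of TAIR10.1, written as DNA from 5′ to 3′. In miR399b the seed, bases 2 to 8, is in capitals. In IPS1 and AT4 the 3 bases left unpaired in the middle of the site are in capitals.
miR399b: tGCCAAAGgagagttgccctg
IPS1: ttgggcaacttCTAtcctttggca
AT4: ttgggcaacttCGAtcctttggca
PHO2: ttgggcaaatctcctttggca
The IPS1 site covers bases 236 to 259 of a transcript of 542 bases, and the AT4 site covers bases 568 to 591 of 936. Each made 18 Watson-Crick and 2 wobble pairs with miR399b, with 1 mismatch beside the 3 unpaired bases. PHO2 had several sites, and the one shown, at bases 902 to 922 of 4176, had no unpaired bases. With miR399b it made 18 Watson-Crick pairs and 1 wobble pair, with 2 mismatches. Another PHO2 site, at bases 680 to 700, made 18 Watson-Crick and 2 wobble pairs with miR399b, with 1 mismatch. With miR399f, not shown, the PHO2 site at bases 902 to 922 made 19 Watson-Crick pairs, 2 wobble pairs and 0 mismatches. With miR399f the IPS1 and AT4 sites each made 17 Watson-Crick and 3 wobble pairs, with 1 mismatch.

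The P1BS motif GNATATNC, which reads the same on both strands, was looked for from 250 bases before to 50 bases after each annotated start. It was found in 4 of the 10 genes (SPX1, SPX3, PHT1;4 and AT4), against 6.25% of all 27443 protein-coding genes, and in 12 of 40 other phosphate genes. In the 250 bases before the start alone it was found in 2 of the 10 (SPX3 and AT4), against 5.46% of all genes. In the 1000 bases before the start it was found in 6 of the 10 genes (SPX1, SPX3, PHT1;1, IPS1, AT4 and SQD2), against 20.3% of all genes. The promoters of SPX1 and PHT1;4, 1 regulator and 1 transporter, are given because these genes have both a match and a NaCl result described further on. SQD2 and PHO1;H1 were also called with NaCl and had no match from 250 bases before to 50 bases after the start. P1BS is in capitals.
SPX1, chr5:6802032-6802331, plus strand: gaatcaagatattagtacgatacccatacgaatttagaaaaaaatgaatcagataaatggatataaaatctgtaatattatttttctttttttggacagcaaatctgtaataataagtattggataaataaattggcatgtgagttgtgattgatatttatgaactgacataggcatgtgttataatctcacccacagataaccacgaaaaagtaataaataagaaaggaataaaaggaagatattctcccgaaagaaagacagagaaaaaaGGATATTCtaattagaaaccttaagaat
PHT1;4, chr2:16256907-16257206, plus strand: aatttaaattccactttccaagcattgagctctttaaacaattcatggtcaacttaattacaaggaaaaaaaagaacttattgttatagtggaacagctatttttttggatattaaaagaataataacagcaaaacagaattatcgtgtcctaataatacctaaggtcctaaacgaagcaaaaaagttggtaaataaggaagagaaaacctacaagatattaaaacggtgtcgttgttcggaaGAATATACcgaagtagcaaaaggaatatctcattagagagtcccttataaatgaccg
The motif shown for SPX1 lay just after the annotated start and that of PHT1;4 began 7 bases before it, so neither lies wholly within the 250 bases before the start. A match shows these letters only, and binding was not measured.

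Expected counts, the number of reads assigned to each gene, summed to between 11202503 and 11909554 per library (median 11461800). Root markers (CASP1, MYB36, EXPA7, COBL9 and BGLU23) summed to 4220 to 7990 FPKM in the root libraries and 149 to 310 FPKM in the shoot libraries, and shoot markers (RBCS1A, LHCB1.3, LHCB2.1, LHCA1 and CA1) to 70.3 to 289 FPKM in roots and 39500 to 46900 FPKM in shoots. FPKM values, which are read counts scaled to gene length and sequencing depth, allow levels to be compared between genes. Neo-tetraploid NaCl shoot library 2 had the lowest mean correlation with its own group (r = 0.963 across genes), followed by neo-tetraploid control shoot library 1 (0.967) and diploid NaCl shoot library 2 (0.968). NaCl results in shoots are also given without both NaCl libraries of number 2 where that changes a call or moves a value by over 1.5 times. In bulk tissue, fewer cells of a type and less RNA per cell cannot be told apart.

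Levels of the 10 genes ranged widely within roots. In the median root library PHT1;1 had 153.0 FPKM and PHO1 117.0 FPKM, followed by SQD2 (24.6 FPKM), PHT1;4 (21.1 FPKM), PHO1;H1 (7.15 FPKM), SPX1 (3.77 FPKM), AT4 (3.29 FPKM) and MGD3 (1.06 FPKM). SPX3 (0.375 FPKM) and IPS1 (0.085 FPKM) were lowest. The ranges over the 12 root libraries overlapped for PHT1;1 (131.76 to 259.64 FPKM) and PHO1 (94.95 to 135.76 FPKM). Within each root library, however, PHT1;1 was higher than PHO1. The ranges of SQD2 (17.78 to 34.51 FPKM) and PHT1;4 (12.54 to 30.04 FPKM) overlapped too. Their order differed between libraries, and in diploid NaCl root library 1 SQD2 had 17.78 FPKM and PHT1;4 had 18.68 FPKM. Neighbours from PHO1;H1 down to AT4, and from MGD3 down to IPS1, overlapped as well. In shoots SQD2 stood alone at the top, with a median of 27.6 FPKM (23.21 to 32.96), and PHO1 came next with a median of 6.0 FPKM (2.57 to 9.69). SPX1 followed with 3.80 FPKM, within the range of PHO1, and the other 7 genes had medians between 0 and 1.11 FPKM.

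**Figure D1:**
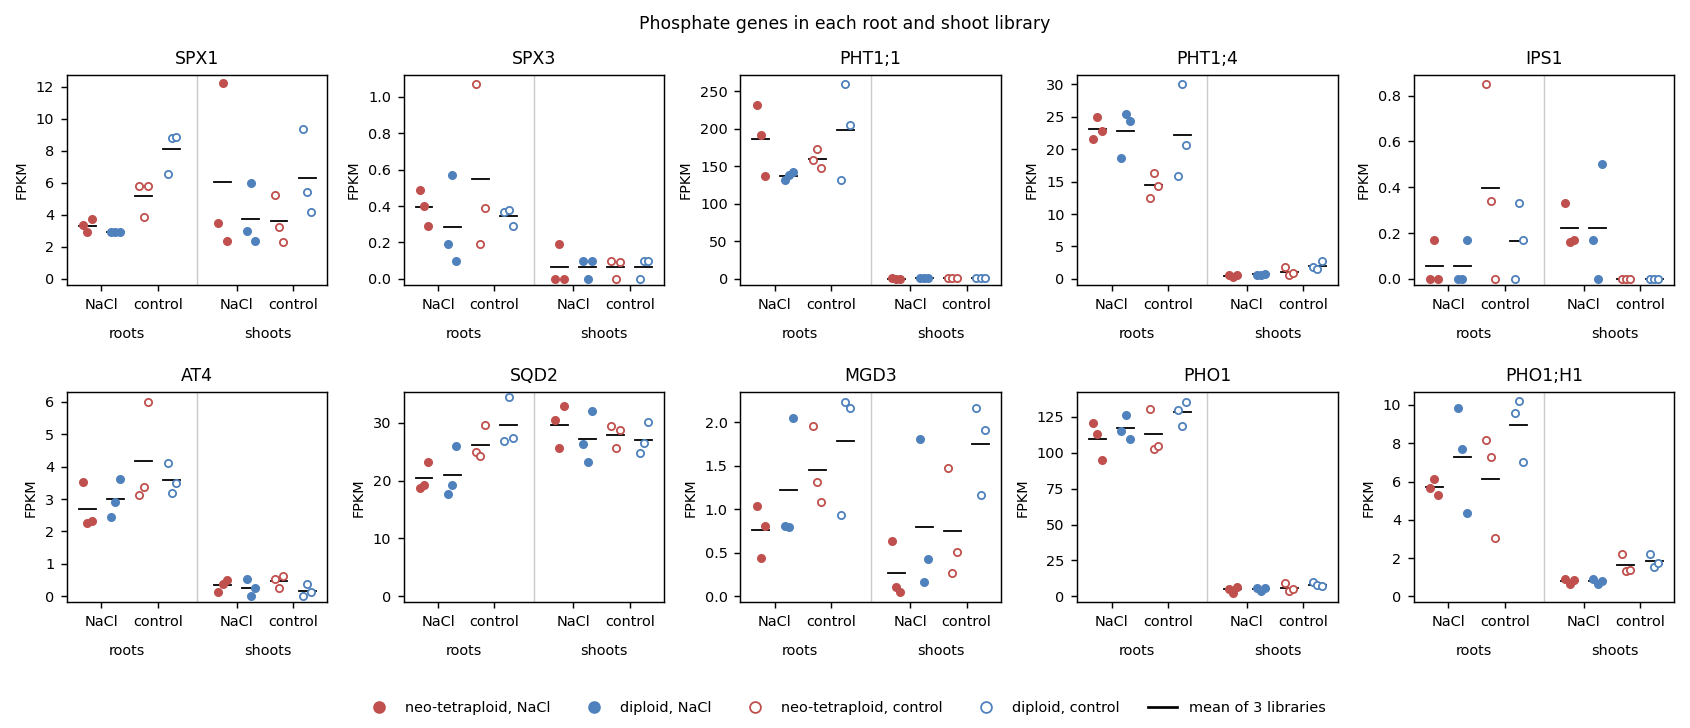
FPKM (y axis, from 0, with a scale of its own in each panel) of the 10 genes in each of the 24 libraries. Points are libraries, filled for NaCl and open for control, red for neo-tetraploids and blue for diploids, and black lines are means of 3 libraries. PHT1;1, PHT1;4, AT4, PHO1 and PHO1;H1 sit higher in every root library than in any shoot library, whereas SPX1 and SQD2 do not.

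Transcripts of SPX3 and IPS1 were scarce. SPX3 had between 1 and 11 counts in root libraries and between 0 and 2 counts in shoot libraries, and only 1 root library, neo-tetraploid control library 1 with 11 counts, reached 10 counts. IPS1, among the most strongly raised RNAs of phosphate-starved plants, had 0 to 5 counts in root libraries and 0 to 3 counts in shoot libraries. IPS1 was at 0 in 6 of 12 root libraries and 7 of 12 shoot libraries, where a count of 0 allows up to 3 counts, for counting error only. Neither gene could be tested, since the tests needed at least 10 counts in at least 3 libraries. IPS1 had 1 to 2 counts in neo-tetraploid NaCl shoots and 0 to 3 counts in diploid NaCl shoots, against 0 in all 6 control shoot libraries. All of these lie within the floor of 3 counts, and no fold change is given.

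AT4, the close relative of IPS1, was measurable in roots only. Its counts ranged from 17 to 46 in root libraries and from 0 to 5 in shoot libraries. Its root levels were 3.52, 2.25 and 2.31 FPKM in neo-tetraploid NaCl libraries, 2.46, 2.92 and 3.61 in diploid NaCl libraries, 3.12, 3.38 and 6.0 in neo-tetraploid control libraries and 4.10, 3.19 and 3.50 FPKM in diploid control libraries. The 6 NaCl root libraries averaged 2.85 FPKM and the 6 control root libraries 3.88 FPKM, and the ranges overlapped. The log2 fold change of NaCl over control, as a mean of both ploidies, was -0.51 (SE 0.21), and the adjusted p was 0.109 in edgeR's quasi-likelihood test with Benjamini-Hochberg adjustment over all genes tested in roots. The value was -0.33 without neo-tetraploid control root library 3, which had the highest level. This test is used throughout, and a gene is called where its adjusted p is under 0.05.

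Roots and shoots were compared as means over the 4 ploidy and NaCl groups. Of the 8 genes that could be tested, 7 were called, beside 82% of all 21338 genes tested. Of these 5 were higher in roots, beside 42.9% of all genes, and 2 were lower, beside 39.2%. The median log2 fold change of roots over shoots was 2.46 for the 8 genes and 0.04 for all genes. AT4 passed the filter through its root libraries alone and so had to differ, and without it 6 of 7 genes were called, 4 higher and 2 lower, with a median of 2.02. PHT1;1 had 131.76 to 259.64 FPKM in roots (median 153.0), against 0 to 1.62 FPKM in shoots (median 0.875), a log2 fold change of 7.28 (SE 0.25). PHT1;4 had 12.54 to 30.04 FPKM in roots (median 21.1), against 0.31 to 2.69 FPKM in shoots (median 0.735), a log2 fold change of 3.89 (SE 0.16). PHO1 had 94.95 to 135.76 FPKM in roots (median 117.0), against 2.57 to 9.69 FPKM in shoots (median 6.0), a log2 fold change of 3.77 (SE 0.14). For these 3 transport genes no root library overlapped a shoot library, and the same held for PHO1;H1 and AT4. The share of all genes without such overlap was not counted. PHO1;H1 was higher in roots by a log2 fold change of 2.02 (SE 0.16), with 3.03 to 10.2 FPKM in roots and 0.63 to 2.22 FPKM in shoots. The adjusted p of these 4 transport genes was 3.82e-10 or lower in edgeR's quasi-likelihood test. AT4 had a log2 fold change of 2.90 (SE 0.28).

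The remaining genes differed less between organs. SQD2 had 17.78 to 34.51 FPKM in roots (median 24.6), against 23.21 to 32.96 FPKM in shoots (median 27.6), and was lower in roots by a log2 fold change of -0.77 (SE 0.08, adjusted p = 1.16e-08 in edgeR's quasi-likelihood test). Its ranges overlapped. SPX1 had 2.90 to 8.87 FPKM in roots (median 3.77), against 2.30 to 12.25 FPKM in shoots (median 3.80), and its log2 fold change was -0.65 (SE 0.25, adjusted p = 0.0221 in edgeR's quasi-likelihood test). These 2 values depend on how organs are scaled to each other. The median of all genes moved to 0.59 when only library totals were used, and SQD2 then had -0.22 (adjusted p = 0.0125), while SPX1 had -0.09 (adjusted p = 0.733), both in edgeR. On log2(FPKM + 1) values the sign of SPX1 turned, with 0.05. Without neo-tetraploid NaCl shoot library 2, where SPX1 was highest, its value was -0.36 (adjusted p = 0.0779 in edgeR), and it was also not called without diploid NaCl shoot library 2 (-0.51), diploid control shoot library 1 (-0.55) or neo-tetraploid control shoot library 1 (-0.56). MGD3 had 0.44 to 2.24 FPKM in roots and 0.05 to 2.17 FPKM in shoots and was not called, with a log2 fold change of 0.25 (95% interval -0.49 to 0.98). It was called, as higher in roots, in the limma fits on log2(FPKM + 1) (0.35, adjusted p = 0.0483) and log2(FPKM + 0.1) (0.88, adjusted p = 0.021) and in no other fit.

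**Figure D2:**
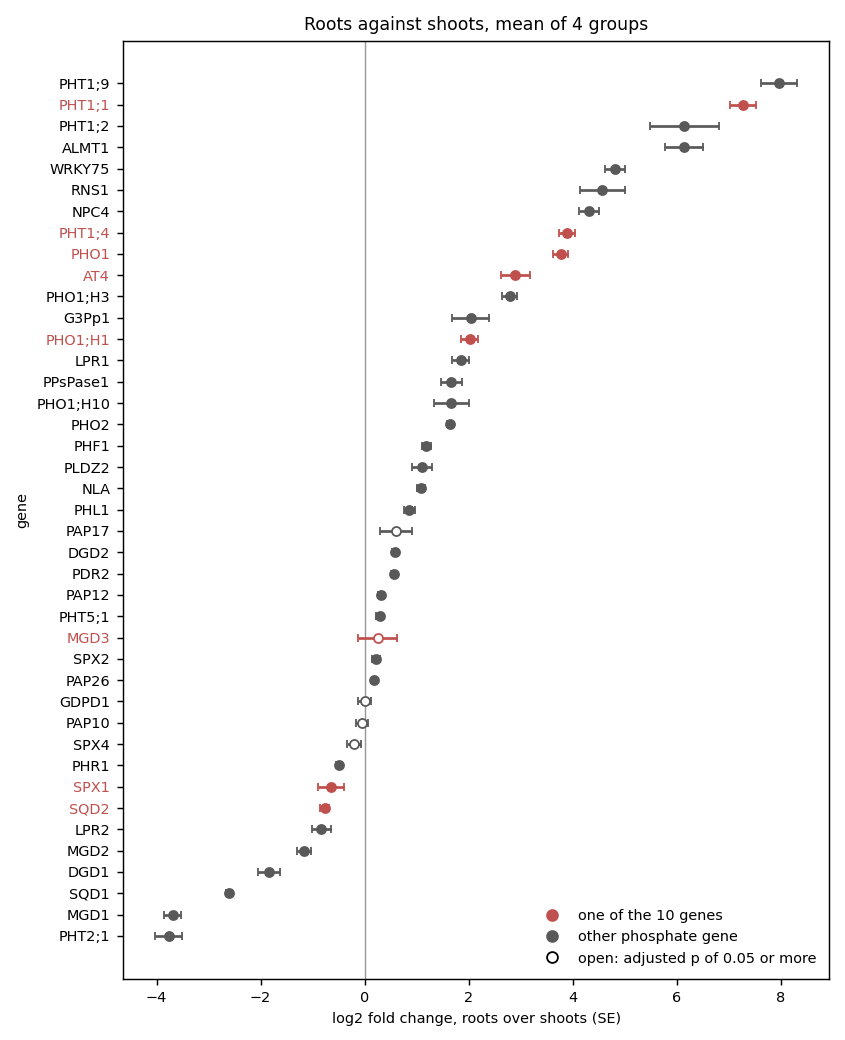
Log2 fold change of roots over shoots (x axis, bars are standard errors) for the 8 tested genes, in red, and 33 other phosphate genes, in grey, as means of 4 groups in edgeR. PHT1;1 stands at 7.28 and SQD2 at -0.77, and open points, MGD3 among the red ones, had an adjusted p of 0.05 or more.

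The near copies of PHT1;1 touch its value. PHT1;2 and PHT1;3 lie beside it on chromosome 5, and 42.4% of the 1963 windows of 50 bases in the PHT1;1 transcript also occur in one of them, so reads of this length could not always be placed. Counts of PHT1;1 were not whole numbers in 12 of 24 libraries. PHT1;1 nevertheless held 98.6% to 99.8% of the counts of the 3 genes in roots. With the 3 genes summed, which added little to the root counts of PHT1;1, the calls of the 10 genes were the same in every comparison. The remaining 9 genes share no window of 50 bases with another gene. The entry of MGD3 in the files pools 5 transcripts, of which 4 belong to neighbouring loci, so its counts may include reads of those loci, and how the reads divide was not tested.

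The effect of genome duplication was asked first without NaCl. Of the 8 genes tested in control roots, 0 were called by ploidy in edgeR, beside 2.31% of all 20239 genes. DESeq2 and limma also called 0, and 2 of the 8 had an unadjusted p under 0.05 in edgeR, beside 14.6% of all genes. The median log2 fold change of neo-tetraploids over diploids was -0.25 for the 8 genes and -0.01 for all genes, and 7 of the 8 values were negative. SPX1 had 5.79, 3.84 and 5.81 FPKM in neo-tetraploid control roots, against 6.55, 8.81 and 8.87 FPKM in diploid control roots. Every neo-tetraploid library lay below every diploid library, and the log2 fold change was -0.59 (SE 0.20, adjusted p = 0.16 in edgeR's quasi-likelihood test). PHT1;4 had 12.54, 16.32 and 14.37 FPKM in neo-tetraploid control roots, against 15.8, 30.04 and 20.68 FPKM in diploid control roots, a log2 fold change of -0.57 (SE 0.21, adjusted p = 0.202 in edgeR's quasi-likelihood test). These ranges overlapped, and without diploid control library 2 the value was -0.27 (adjusted p = 0.448 in edgeR). With the replicate number as a block PHT1;4 was called (-0.54, adjusted p = 0.0331 in edgeR). The deviations of same-numbered libraries of these groups from their group means correlated across genes by 0.367, 0.093 and 0.399. The intervals of the 2 phosphate exporters reached from -0.36 to 0.11 for PHO1 and from -1.10 to 0.14 for PHO1;H1.

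The same question was asked of plants grown with NaCl. Of the 8 genes 0 were called in NaCl roots by edgeR, DESeq2 or limma, beside 0.252% of all genes, and 1 had an unadjusted p under 0.05, beside 14.9% of all genes. That gene was PHT1;1, with 231.86, 191.79 and 137.6 FPKM in neo-tetraploid NaCl roots and 131.76, 138.54 and 143.12 FPKM in diploid NaCl roots. One neo-tetraploid library lay within the diploid range, and the log2 fold change was 0.52 (SE 0.22, adjusted p = 0.301 in edgeR's quasi-likelihood test), or 0.34 without neo-tetraploid NaCl library 1. SPX1 differed by 0.26 on the log2 scale (95% interval -0.17 to 0.70) and PHT1;4 by 0.10 (-0.30 to 0.49). For the mean of control and NaCl roots, 0 of the 8 genes were called, beside 5.05% of all genes, and 0 had an unadjusted p under 0.05 in edgeR, beside 22.2%. DESeq2 and limma called 0 as well.

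In shoots 0 of 7 tested genes were called by ploidy, in control, with NaCl or as a mean of both, by edgeR, DESeq2 or limma. The share of all 19174 genes called by edgeR was 0.0104% in control shoots, 0.0104% in NaCl shoots and 0.0261% for the mean, and 1, 0 and 2 of the 7 genes had an unadjusted p under 0.05, beside 9.08%, 3.89% and 10% of all genes. PHT1;4 had 1.75, 0.59 and 0.94 FPKM in neo-tetraploid control shoots, against 1.83, 1.51 and 2.69 FPKM in diploid control shoots. As a mean of both conditions its log2 fold change was -0.72 (SE 0.28, adjusted p = 0.46 in edgeR's quasi-likelihood test). MGD3 had a mean log2 fold change of -1.49 (SE 0.66) and spread widely, with 0.05 to 1.47 FPKM in the 6 neo-tetraploid shoot libraries and 0.16 to 2.17 FPKM in the 6 diploid shoot libraries. Its value was -0.76 without diploid NaCl shoot library 1 and -2.32 without neo-tetraploid NaCl shoot library 1, and it was not called in either fit. SQD2 was the gene with the narrowest interval, -0.11 to 0.19 on the log2 scale. The ploidy effect did not pass the test of a difference between organs for any of the 8 genes in edgeR, DESeq2 or limma, beside 0.00469% of all genes, and 0 had an unadjusted p under 0.05, beside 7.31%.

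**Figure D3:**
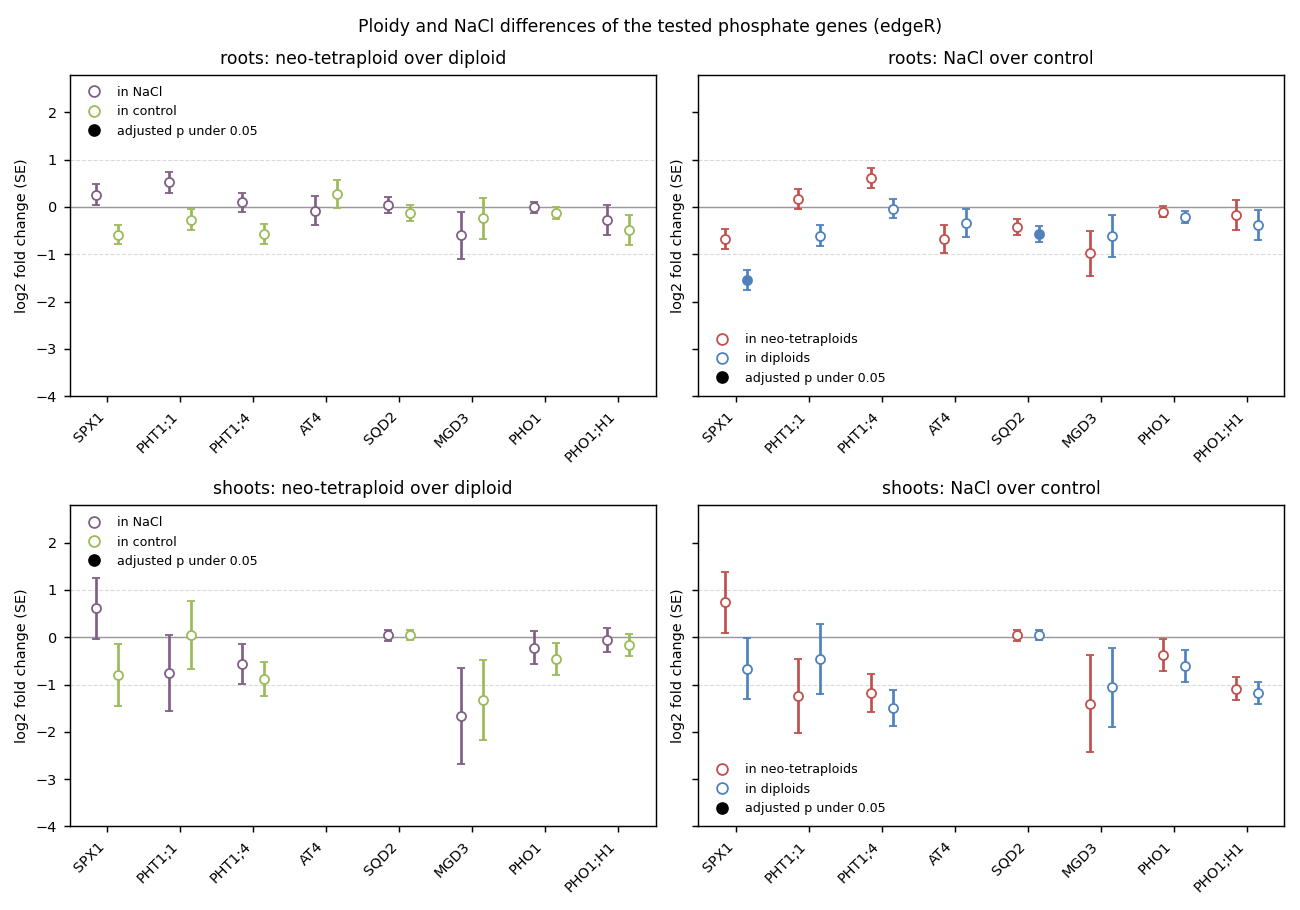
Log2 fold changes of neo-tetraploids over diploids (left) and of NaCl over control (right) in roots (top) and shoots (bottom), with bars for standard errors, from edgeR. Filled points have an adjusted p under 0.05: SPX1 at -1.54 and SQD2 at -0.57 in diploid roots with NaCl, and none of the ploidy differences.

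SPX1, the PHR1 inhibitor, had the largest change with NaCl among the 8 genes tested in roots, as a mean of both ploidies. SPX1 had 3.35, 2.90 and 3.71 FPKM in neo-tetraploid NaCl roots, against 5.79, 3.84 and 5.81 FPKM in neo-tetraploid control roots. In diploid NaCl roots it had 2.92, 2.95 and 2.92 FPKM, against 6.55, 8.81 and 8.87 FPKM in diploid control roots. In both ploidies every NaCl library lay below every control library, and the 6 NaCl libraries together spanned only 35 to 46 counts, against 47 to 110 counts in the 6 control libraries. SPX1 fell in diploid roots by a log2 fold change of -1.54 (SE 0.21, adjusted p = 9.64e-04 in edgeR's quasi-likelihood test), to 0.344 of the control level. In neo-tetraploid roots its log2 fold change was -0.68 (SE 0.21, adjusted p = 0.0721 in edgeR's quasi-likelihood test), and -0.85 (adjusted p = 0.0446) without neo-tetraploid control library 2. The difference between these responses, 0.86 (SE 0.30), did not pass after adjustment (adjusted p = 0.701 in edgeR). As a mean of both ploidies SPX1 fell by 1.11 on the log2 scale (SE 0.15, adjusted p = 3.01e-04 in edgeR's quasi-likelihood test), and it was called in all 12 fits that left out 1 root library.

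SQD2, the sulfolipid synthase, also fell. It had 18.79, 19.22 and 23.23 FPKM in neo-tetraploid NaCl roots, against 25.03, 24.19 and 29.56 FPKM in neo-tetraploid control roots. In diploid NaCl roots it had 17.78, 19.2 and 25.95 FPKM, against 26.93, 34.51 and 27.37 FPKM in diploid control roots. The groups did not overlap within either ploidy. As a mean of both ploidies SQD2 fell by 0.50 on the log2 scale (SE 0.12, adjusted p = 0.0108 in edgeR's quasi-likelihood test), and it was called in all 12 fits that left out 1 root library. In diploids alone its log2 fold change was -0.57 (SE 0.17, adjusted p = 0.0469 in edgeR), and it stayed called in 2 of the 6 fits that left out 1 diploid root library. Without diploid control library 2 or 3, or without diploid NaCl library 1 or 2, it was not called. In neo-tetraploids it was -0.42 (SE 0.17, adjusted p = 0.17 in edgeR).

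By ploidy, 2 of the 8 genes tested were called lower in diploid NaCl roots, beside 6.13% of all genes called lower and 9.64% called in either direction, and 0 in neo-tetraploid NaCl roots, beside 6.56%. In neo-tetraploid roots 4 of the 8 had an unadjusted p under 0.05, beside 20.8% of all genes, DESeq2 called 1 (PHT1;4) and limma 0. For the mean of both ploidies 2 of the 8 were called, both lower, beside 11.6% of all genes called lower and 19% called in either direction. The median log2 fold change of the 8 genes was -0.38 for that mean, against 0.01 for all genes.

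The uptake transporters PHT1;1 and PHT1;4 did not pass edgeR's test in roots with all 12 libraries, and each was called in some other fits. PHT1;4 had 21.56, 24.93 and 22.74 FPKM in neo-tetraploid NaCl roots, against 12.54, 16.32 and 14.37 FPKM in neo-tetraploid control roots. In neo-tetraploids the groups did not overlap, and the log2 fold change was 0.62 (SE 0.21, adjusted p = 0.0933 in edgeR's quasi-likelihood test). This value was called by DESeq2 (0.63, adjusted p = 0.0452), by edgeR on the 6 libraries compared (0.64, adjusted p = 0.0157) and by edgeR with the replicate number as a block (0.63, adjusted p = 0.00909), since same-numbered libraries of these groups deviated together. In diploid NaCl roots it had 18.68, 25.48 and 24.31 FPKM, against 15.8, 30.04 and 20.68 FPKM in diploid control roots, and the log2 fold change was -0.04 (95% interval -0.44 to 0.35). PHT1;1 had 231.86, 191.79 and 137.6 FPKM in neo-tetraploid NaCl roots, against 158.03, 173.03 and 147.44 FPKM in roots of neo-tetraploid controls, a log2 fold change of 0.17 (SE 0.22). In diploid NaCl roots it had 131.76, 138.54 and 143.12 FPKM, against 132.5, 259.64 and 204.83 FPKM in diploid control roots, a log2 fold change of -0.61 (SE 0.22, adjusted p = 0.0977 in edgeR's quasi-likelihood test). DESeq2 called it (-0.63, adjusted p = 0.0401), as did edgeR without diploid control library 1 (-0.85, adjusted p = 0.0142), whereas without diploid control library 2 it was -0.35 (adjusted p = 0.391 in edgeR). The ranges of PHT1;1 overlapped in both ploidies. The response to NaCl differed between ploidies by 0.79 (SE 0.31) for PHT1;1 and by 0.67 (SE 0.29) for PHT1;4, with adjusted p of 0.742 and 0.782 in edgeR, and the value of PHT1;4 was 0.38 without diploid control library 2. In all, 0 of the 8 genes, and 0 of all genes tested (0%), were called for this difference by edgeR, with 3 of the 8 at an unadjusted p under 0.05, beside 6.22% of all genes, and DESeq2 and limma called 0 of the 8.

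The exporters and MGD3 did not pass the test in roots. PHO1 had 94.95 to 126.22 FPKM in the 6 NaCl root libraries and 102.8 to 135.76 FPKM in the 6 control root libraries, with a mean log2 fold change of -0.15 (95% interval -0.32 to 0.01). PHO1;H1 had 4.36 to 9.85 FPKM with NaCl and 3.03 to 10.2 FPKM in control roots, and its log2 fold change was -0.27 (-0.72 to 0.17). MGD3 had 0.44 to 2.05 FPKM with NaCl and 0.94 to 2.24 FPKM in control roots, a log2 fold change of -0.80 (SE 0.33, adjusted p = 0.109 in edgeR's quasi-likelihood test). It was called without diploid control library 1 (-0.95, adjusted p = 0.0472) or diploid NaCl library 3 (-1.10, adjusted p = 0.0275), both in edgeR. In neo-tetraploids alone the MGD3 libraries did not overlap, with 1.04, 0.44 and 0.81 FPKM with NaCl and 1.96, 1.31 and 1.09 FPKM in control.

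In shoots with NaCl, 2 genes of phosphate transport fell, PHO1;H1 and PHT1;4. PHO1;H1 had 0.88, 0.65 and 0.85 FPKM in neo-tetraploid NaCl shoots, against 2.20, 1.33 and 1.37 FPKM in neo-tetraploid control shoots. In diploid NaCl shoots it had 0.90, 0.63 and 0.79 FPKM, against 2.22, 1.52 and 1.74 FPKM in diploid control shoots. All 6 NaCl libraries lay below all 6 control libraries, and as a mean of both ploidies PHO1;H1 fell by a log2 fold change of -1.13 (SE 0.17, adjusted p = 0.012 in edgeR's quasi-likelihood test), or 2.19-fold. Without both NaCl shoot libraries of number 2 its log2 fold change was -1.04 (adjusted p = 0.0476 in edgeR).

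PHT1;4 had 0.64, 0.31 and 0.54 FPKM in neo-tetraploid NaCl shoots, against 1.75, 0.59 and 0.94 FPKM in neo-tetraploid control shoots. In diploid NaCl shoots it had 0.65, 0.59 and 0.82 FPKM, against 1.83, 1.51 and 2.69 FPKM in diploid control shoots. Groups overlapped in neo-tetraploids and not in diploids. As a mean of both ploidies PHT1;4 fell by a log2 fold change of -1.33 (SE 0.27, adjusted p = 0.0309 in edgeR's quasi-likelihood test), with 7 to 18 counts per NaCl library, against 13 to 60 counts per control library. It was called in 4 of the 12 fits that left out 1 shoot library, with -1.46 to -1.09. It was not called without any 1 of the 6 diploid shoot libraries or without neo-tetraploid NaCl library 2 or 3, nor without both NaCl shoot libraries of number 2 (-1.19, adjusted p = 0.0911 in edgeR).

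Over both ploidies 2 of the 7 genes tested in shoots were called, both lower, beside 2.94% of all genes called lower and 5.03% called in either direction, and the median log2 fold change was -0.84 for the 7 genes and 0.01 for all genes. Within each ploidy edgeR called 0 of the 7, beside 0% of all genes in diploids and 0.0104% in neo-tetraploids, with 2 of the 7 at an unadjusted p under 0.05 in each, beside 17.6% and 12.4%. DESeq2 called 2 in diploids and 1 in neo-tetraploids, and limma 0 in either. The share of all genes called by these fits, or by the block fit given next, was not counted. Shoot libraries with the same number deviated together, and with that number as a block edgeR called PHO1;H1 (-1.18, adjusted p = 0.0131) and PHT1;4 (-1.49, adjusted p = 0.0285) in diploid shoots and PHO1;H1 (-1.07, adjusted p = 0.0268) in neo-tetraploid shoots. With the block, MGD3 was called as well for the mean of both ploidies (-1.42, adjusted p = 0.039 in edgeR). The difference between the responses of the 2 ploidies did not pass the test for any of the 7 genes by edgeR, DESeq2 or limma, beside 0% of all genes, and 0 had an unadjusted p under 0.05, beside 2.91%. For SPX1 it was 1.41 with a wide interval (95% interval -0.38 to 3.20).

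The other shoot members did not pass. PHO1 had 5.25, 2.57 and 6.55 FPKM in neo-tetraploid NaCl shoots, against 9.16, 3.9 and 4.74 FPKM in neo-tetraploid control shoots, and 5.90, 3.55 and 6.09 FPKM in diploid NaCl shoots, against 9.69, 7.72 and 7.06 FPKM in diploid control shoots. Its diploid groups did not overlap, and the mean log2 fold change was -0.49 (SE 0.24, adjusted p = 0.233 in edgeR's quasi-likelihood test), or -0.25 without both NaCl libraries of number 2. SPX1 had 3.47, 12.25 and 2.33 FPKM in neo-tetraploid NaCl shoots, against 5.23, 3.24 and 2.30 FPKM in neo-tetraploid control shoots. In diploid NaCl shoots it had 2.96, 5.98 and 2.35 FPKM, against 9.34, 5.43 and 4.14 FPKM in diploid control shoots. In both NaCl groups library 2 was the highest, and the mean log2 fold change of SPX1 was 0.04 (95% interval -0.85 to 0.93). Without both of these libraries it was -0.80 (SE 0.31, adjusted p = 0.185 in edgeR). In neo-tetraploids its response was 0.74 with all libraries and -0.39 without them, and in diploids -0.66 with all libraries and -1.21 without them. SQD2 had 23.21 to 32.96 FPKM in NaCl shoots and 24.83 to 30.1 FPKM in control shoots, and its log2 fold change of 0.04 had a narrow interval (-0.11 to 0.19). PHT1;1 had 0 to 1.02 FPKM in NaCl shoots (median 0.56) and 0.48 to 1.62 FPKM in control shoots (median 0.985), with a log2 fold change of -0.84 (SE 0.54, adjusted p = 0.348 in edgeR). MGD3 had 0.05 to 1.81 FPKM in NaCl shoots (median 0.295) and 0.27 to 2.17 FPKM in control shoots (median 1.31), with -1.23 (SE 0.66, adjusted p = 0.266 in edgeR), or -0.82 without both NaCl libraries of number 2. The 6 NaCl and the 6 control libraries overlapped for both genes, and no shoot library held more than 33 counts of PHT1;1 or 40 counts of MGD3.

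The response to NaCl was then compared between organs, as the response of roots minus that of shoots. Of the 8 genes 2 were called, beside 5.13% of all genes tested. PHT1;4 differed by 1.62 (SE 0.31, adjusted p = 0.00763 in edgeR's quasi-likelihood test), with a log2 fold change of 0.29 in roots and -1.33 in shoots, and it was called in all 24 fits that left out 1 library. SQD2 differed by -0.54 (SE 0.15, adjusted p = 0.045 in edgeR's quasi-likelihood test), with -0.50 in roots and 0.04 in shoots. The call of SQD2 held in 7 of 24 fits that left out 1 library: diploid control root library 1 or 3, diploid control shoot library 3, diploid NaCl root library 3, diploid NaCl shoot library 2, neo-tetraploid NaCl root library 3 or neo-tetraploid NaCl shoot library 2. Over all 24 its value ran from -0.64 to -0.46, and the call was lost with scaling by library totals (-0.48, adjusted p = 0.0823 in edgeR). SPX1 (-1.15, SE 0.50, adjusted p = 0.177) and PHO1;H1 (0.86, SE 0.33, adjusted p = 0.127) did not pass in edgeR. Without neo-tetraploid NaCl shoot library 2 the value of SPX1 was -0.58. With the replicate number as a block PHO1;H1 was called (0.86, adjusted p = 0.0398 in edgeR). Same-numbered root and shoot libraries deviated together in 27 of 48 pairs only.

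A list of 40 other phosphate genes, chosen by function, was read beside these 10. In roots 33 could be tested and in shoots 29. In control roots 2 of the 33 were called by ploidy, both higher in neo-tetraploids, beside 1.96% of all genes called higher. WRKY75, a transcription factor of the starvation response, had 44.92, 59.11 and 55.87 FPKM in neo-tetraploid control roots, against 33.15, 30.57 and 21.23 FPKM in diploid control roots, a log2 fold change of 0.97 (SE 0.23, adjusted p = 0.0434 in edgeR). PHO1;H3, a relative of PHO1, had 23.71, 42.35 and 35.61 FPKM in neo-tetraploid control roots, against 14.49, 11.95 and 13.18 FPKM in diploid control roots, a log2 fold change of 1.42 (SE 0.26, adjusted p = 0.0146 in edgeR). In NaCl roots 0 of the 33 were called by ploidy in edgeR, with 4 at an unadjusted p under 0.05, beside 14.9% of all genes.

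NaCl changed 11 of the 33 in roots as a mean of both ploidies, 3 higher and 8 lower, beside 19% of all genes called in either direction. The 3 that rose were RNS1, a ribonuclease (1.13, SE 0.18), PAP17, an acid phosphatase (0.90, SE 0.26), and PHO1;H10 (0.67, SE 0.19), all as log2 fold changes. Those that fell included ALMT1, a malate channel (-1.15, SE 0.22), and LPR1, a ferroxidase (-1.03, SE 0.16), which both act when root tips meet low phosphate. The other 2 root-tip genes tested, LPR2 and PDR2, were not called. The regulators PHR1, PHL1, PHO2, NLA and WRKY75 and the sensors SPX2 and SPX4 were not called either. Of the 8 lipid genes tested on this list 3 fell and 0 rose, beside 11.6% of all genes called lower. The 3 were MGD2 (-0.92, SE 0.15), NPC4 (-0.57, SE 0.15) and DGD2 (-0.31, SE 0.07). The other 5 were not called: SQD1, which acts before SQD2 in making sulfolipid, had 0.26 (SE 0.09, adjusted p = 0.0506 in edgeR), and MGD1 0.19, GDPD1 0.11, DGD1 0.02 and PLDZ2 -0.33. The acid phosphatases PAP10 (-0.74, SE 0.09) and PAP26 (-0.22, SE 0.07) and the PHT1 trafficking factor PHF1 (-0.32, SE 0.10) fell as well. The median log2 fold change of the 33 genes was -0.09, against 0.01 for all genes. In shoots 0 of the 29 were called by edgeR for the NaCl mean, beside 5.03% of all genes, with 10 at an unadjusted p under 0.05, beside 25.7%.

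**Figure D4:**
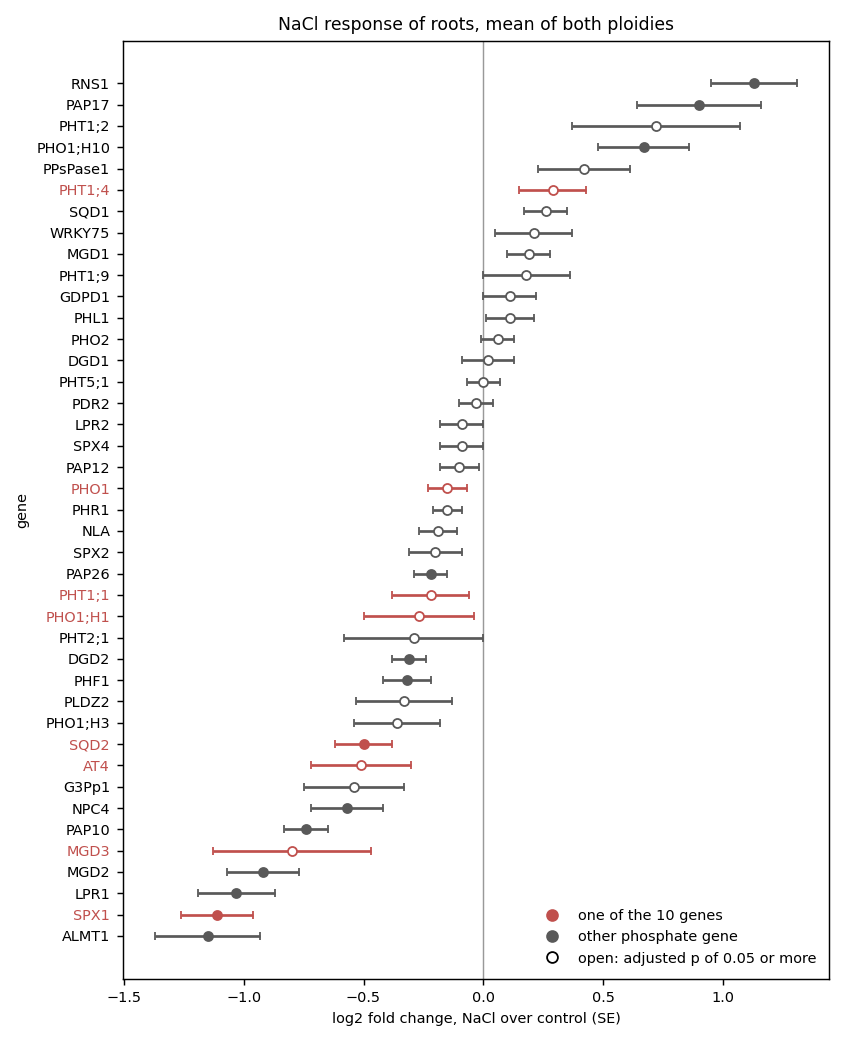
Log2 fold change of NaCl over control in roots (x axis, bars are standard errors) as a mean of both ploidies in edgeR, for the 8 tested genes (red) and 33 other phosphate genes (grey). Filled points had an adjusted p under 0.05: SPX1 (-1.11) and SQD2 (-0.50) among the red, and 11 of the grey.

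The genes most like each of the 10 across the 12 root libraries were ranked by Pearson's r of log2 CPM values. SPX1 was closest to KAC1 (r = 0.97), AT5G52030 (0.96) and FADA (0.95), and PHT1;1 to PPC1 (0.95), AUX1 (0.95) and PMDH1 (0.94). PHT1;4 reached 0.90 with AT2G04090, SQD2 0.95 with AT1G73650, PHO1 0.92 with ACBP4 and PHO1;H1 0.95 with GATA16. AT4 (0.88 with AT1G52110) and MGD3 (0.87 with SDH2-1) had the lowest of these values and also few counts. The libraries share groups, and with 20238 genes ranked over 12 libraries these values are descriptions only.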

How the data were processed

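RNA of roots and shoots was enriched for poly(A) with oligo(dT) and read as single-end reads of 50 bases on a BGISEQ-500. The authors used HISAT and Bowtie2 for mapping to TAIR10, and RSEM for expression (versions not given in the sources used here). The deposited expected counts, RSEM's estimate of reads per gene, carry no normalization. The deposited FPKM values are scaled by the authors to gene length and depth. A file lists only genes with reads, so an unlisted gene was given 0. The authors' own calls came from NOISeq and were not used.

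Expected counts were rounded, and a gene was tested where 3 or more of the fitted libraries held 10 or more counts, with edgeR 4.0.16 (R 4.3.3, TMM scaling, quasi-likelihood test): 1 model of 4 groups per organ, and 1 model of 8 groups over 24 libraries for contrasts of organs. Benjamini-Hochberg adjustment ran over every gene tested. The shares of all genes called come from these models and were not counted for the alternative fits. The standard error is the log2 fold change divided by the square root of F. The 95% intervals span 1.96 standard errors to either side, a normal quantile that takes no account of the test's degrees of freedom. The script was tested on simulated data. Those of the 10 genes that could be tested are counted in every comparison. Values of single genes are not given for every gene in every comparison. The other phosphate genes are named where called by ploidy or NaCl. The genes, lists and tests were chosen with earlier results of these data known. Groups and replicate numbers came from the sample labels. For each member the 3 most alike genes were found over root libraries, and 1 or 3 are given.

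Alternatives were DESeq2 1.42.0, scaling by library totals, no filter, limma 3.58.1 on log2(FPKM + 1) and log2(FPKM + 0.1) of genes with at least 1 FPKM in at least 3 libraries, only the 6 libraries compared, a fold change of at least 2, a replicate block, and each library left out. Chosen after seeing the data were the sum of PHT1;1 with its near copies, both NaCl shoot libraries of number 2 left out, and the window of 1000 bases for promoters. Same-numbered shoot libraries deviated together from their group means (correlation across genes 0.136 to 0.692, over 0.1 in 18 of 18 pairs), so the block is given beside shoot results where it changes a call. Root pairs did so in 15 of 18, among them all 3 between neo-tetraploid NaCl and control roots (0.118 to 0.274), where the block is given too. It is also given for PHT1;4 by ploidy in control roots (0.093 to 0.399) and for PHO1;H1 in the organ difference. Pairs of a root and a shoot were over 0.1 in 27 of 48. The files give gene identifiers and no coordinates, so positions and sequences are those of TAIR10.1 (RefSeq), matched by identifier. Counting intervals and floors cover counting error only.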

Additional observations from a re-analysis of the deposited data

Results flagged for a closer look

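The response to NaCl of 2 genes differed between organs by the test of that difference in edgeR, with Benjamini-Hochberg adjustment over all genes. For PHT1;4 the response of roots minus that of shoots was 1.62 on the log2 scale (SE 0.31, adjusted p = 0.00763). In shoots the libraries of this gene held only 7 to 60 counts. For SQD2 the same difference was -0.54 (SE 0.15, adjusted p = 0.045). This call held in only 7 of 24 fits that left out 1 library. It was lost with scaling by library totals, without the filter and with limma at either pseudocount.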

How the results depend on the processing

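Depth limited SPX3 and IPS1, which had too few counts to be tested, and PHT1;1, PHT1;4, MGD3 and AT4 in shoots. With 3 libraries per group, missed thresholds do not show that levels were equal.

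The number of the 10 genes called moved as follows. In diploid NaCl roots it was 1 (SPX1) with scaling by library totals, with limma at either pseudocount, with only the 6 libraries compared and when a fold change of at least 2 was required, 3 (with PHT1;1) with DESeq2, and 1 to 3 when 1 library was left out. In neo-tetraploid NaCl roots it was 1 (PHT1;4) with DESeq2, with the replicate block and with only the 6 libraries compared, and 0 to 1 when 1 library was left out. For the root NaCl mean it was 1 (SPX1) when a fold change of at least 2 was required, and 2 to 3 when 1 library was left out, with MGD3 or, without diploid control library 2, PHT1;4 (0.45, adjusted p = 0.02 in edgeR) added. For roots against shoots it was 6 with scaling by library totals, 5 with a fold change of at least 2, 8 without the filter, where SPX3 was added, and 6 to 7 when 1 library was left out. In diploid NaCl shoots it was 2 and in neo-tetraploid NaCl shoots 1, each with DESeq2 and with the replicate block. For the shoot NaCl mean it was 1 (PHO1;H1) with limma at either pseudocount and without both NaCl libraries of number 2, and 1 to 2 when 1 library was left out. For the organ difference of the NaCl response it was 1 (PHT1;4) with scaling by library totals, without the filter, with limma at either pseudocount and when a fold change of at least 2 was required, and 1 to 2 when 1 library was left out. The causes were not tested, except that a fold change of at least 2 leaves out smaller changes by construction.

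Same-numbered root libraries also deviated together, though not in every pair (15 of 18 over 0.1). In roots the replicate block gave 1 call (PHT1;4, -0.54, adjusted p = 0.0331 in edgeR) by ploidy in control roots, called PHT1;4 with NaCl in neo-tetraploids (0.63, adjusted p = 0.00909), and made PHT1;4 the third gene called for the root NaCl mean (0.31, adjusted p = 0.0282). For the organ difference it added PHO1;H1 (0.86, adjusted p = 0.0398). In shoots it changed no other call than those given. The root over shoot value of SPX1 turned to 0.05 with limma on log2(FPKM + 1) and 0.07 on log2(FPKM + 0.1). The share of promoters with P1BS was 5.46% in the 250 bases before the start and 20.3% in the 1000 before it, against 6.25%. Of the values of single genes with an unadjusted p under 0.05, and apart from fits that left out 1 library, 289 kept their direction and side of the threshold, 12 passed it, 17 no longer did and 2 turned sign.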
